A study of Mus musculus with 9 samples.

Results

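The genes described here encode the enzymes and proteins that remove superoxide and peroxides, make and recycle glutathione, couple it to reactive compounds, and bind zinc and copper. From a list of 44 mouse genes, a member was kept where the platform annotation mapped a row of the expression table to that gene's symbol alone, and the brightest row stood for the gene. This gave 42 members of the 19938 genes measured in the same way. Prdx5 and Prdx6 had no such row and were not analysed here.

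RNA was measured on single-colour Affymetrix Mouse Gene 1.0 ST arrays in 3 groups of 3 arrays each, all labelled as C57BL/6 mouse. The groups were cells labelled as dedifferentiated from adult cardiac fibroblasts by a protein-based method, embryonic stem (ES) cells labelled C57, and adult cardiac fibroblasts. The labels name no protein, dose, time, passage, sex or age beyond "adult", and the fibroblasts' source label also contains the words ES cell, so their titles were followed. The labels number the arrays as replicates without saying that they came from separate cultures or animals, so p-values measure the spread between these arrays, which may be technical. On the log2 scale the Y-linked Eif2s3y averaged 3.55 in fibroblast, 8.09 in dedifferentiated and 7.76 in ES arrays. Xist, the X-inactivation RNA, averaged 7.31, 3.25 and 3.15 in the same order. The dedifferentiated cells thus cannot be taken to come from the fibroblasts measured here. Each comparison with fibroblasts is also one between arrays that differ in sex-linked transcripts.

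Superoxide dismutases turn superoxide into hydrogen peroxide, which catalase, the glutathione peroxidases and the peroxiredoxins then reduce. Glutathione and thioredoxin supply the electrons for most of these reactions, and both are kept reduced with NADPH. Many of the genes are induced by the transcription factor Nrf2 (Nfe2l2), which Keap1 marks for degradation in unstressed cells and which binds the antioxidant response element. Metallothioneins bind zinc and copper and are switched on by the zinc-sensing factor Mtf1 through metal response elements.

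The promoters of Mt1, Mt2, Srxn1 and Gclm are shown because all of these genes were higher in dedifferentiated than in ES arrays and the metallothioneins and 2 Nrf2 targets are known for the elements searched. Only Srxn1 and Gclm of these passed the size required there, and Txnip, which passed it with the opposite sign, is not shown. Hmox1, which also passed it and was higher by 1.27, had no promoter in the set used and could not be shown. The same holds for Sod3, Gclc, Gsr, Gsta4 and Gstt2, which makes 6 members without a promoter. The sequences are those of RefSeq on GRCm38.p6, from 250 bases before to 50 bases after the annotated start, 5′ to 3′ on the gene's strand, which is + for all of them. Capitals in the metallothionein promoters mark the metal response element, TGCACNC or TGCGCNC, on either strand. Mt1 lies at chr8:94178839-94179138 and Mt2 at chr8:94172368-94172667. The Mt1 gene is annotated from 94178883, which is inside its window and before the start used, so another start is annotated.
Mt1: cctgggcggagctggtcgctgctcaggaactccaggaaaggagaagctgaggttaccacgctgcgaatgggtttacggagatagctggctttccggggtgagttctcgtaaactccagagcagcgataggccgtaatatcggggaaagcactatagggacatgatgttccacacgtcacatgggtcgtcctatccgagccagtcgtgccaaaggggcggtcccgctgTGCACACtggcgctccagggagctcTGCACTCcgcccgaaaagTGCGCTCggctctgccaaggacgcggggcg
Mt2: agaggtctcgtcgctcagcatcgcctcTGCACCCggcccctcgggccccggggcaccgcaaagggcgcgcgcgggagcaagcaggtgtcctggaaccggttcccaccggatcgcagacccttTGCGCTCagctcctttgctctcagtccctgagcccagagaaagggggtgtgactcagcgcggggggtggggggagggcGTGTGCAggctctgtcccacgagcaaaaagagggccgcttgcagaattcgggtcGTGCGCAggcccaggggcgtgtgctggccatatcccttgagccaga

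In the other promoters the capitals mark the antioxidant response element, TGACNNNGC or TGAGNNNGC, on either strand. Srxn1 lies at chr2:152105274-152105573 and Gclm at chr3:122245307-122245606. The Gclm gene is annotated from 122245487, likewise before the start used.
Srxn1: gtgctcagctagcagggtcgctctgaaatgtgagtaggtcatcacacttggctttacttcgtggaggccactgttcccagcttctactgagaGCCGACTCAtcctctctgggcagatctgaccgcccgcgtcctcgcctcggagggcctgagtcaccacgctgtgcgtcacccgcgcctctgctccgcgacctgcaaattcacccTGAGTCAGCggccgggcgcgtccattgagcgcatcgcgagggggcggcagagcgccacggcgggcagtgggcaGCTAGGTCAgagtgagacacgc
Gclm: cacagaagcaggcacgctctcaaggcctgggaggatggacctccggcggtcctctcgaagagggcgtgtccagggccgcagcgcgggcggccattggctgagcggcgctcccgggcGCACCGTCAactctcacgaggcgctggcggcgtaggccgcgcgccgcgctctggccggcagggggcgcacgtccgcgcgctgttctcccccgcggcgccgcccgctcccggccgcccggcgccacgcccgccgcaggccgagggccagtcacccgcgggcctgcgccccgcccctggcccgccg

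The Mt1 promoter held 3 matches to the metal response element and the Mt2 promoter held 4. The Srxn1 promoter held 3 matches to the antioxidant response element and the Gclm promoter held 1. The elements were not divided by gene: Mt2 also held an antioxidant response element match, Srxn1 a metal response element match and Gclm 3 of them, 1 of which overlapped its antioxidant match. The map of motif matches shows all of them by distance from the start. Among 32851 mouse promoters of this length, 27.8% held the antioxidant response element, beside 14 of the 46 promoters of members (30.4%), which belong to 36 members. The metal response element was in 25.7% of all promoters and in 13 of the 46 promoters of members (28.3%), so both shares were near those of all promoters. Such a match describes the letters in the window and is not a measured binding site.

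**Figure D1:**
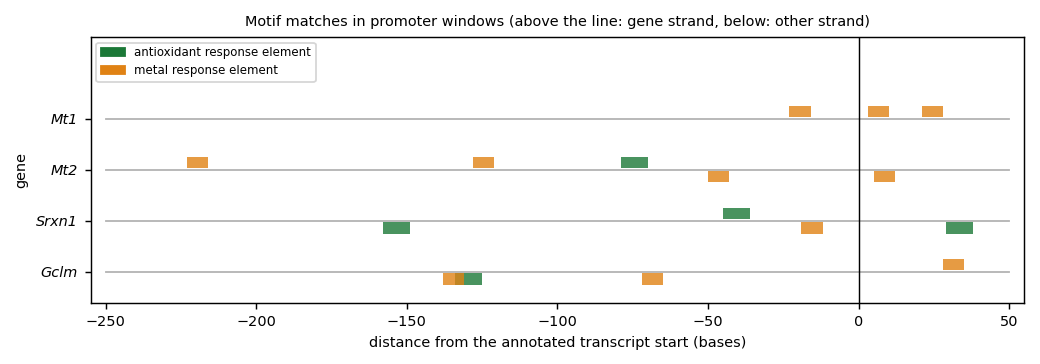
Matches to the antioxidant response element and the metal response element in the promoters of Mt1, Mt2, Srxn1 and Gclm. The x axis is the distance in bases from the annotated transcript start, boxes above a line are matches on the gene's strand and boxes below it are matches on the other strand. Mt1 has 3 metal matches, Mt2 has 4, and Srxn1 has 3 antioxidant matches.

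Values are log2 signals, so a difference of 1 is a change of 2-fold, and a gene was counted as changed where its adjusted p was under 0.05 and its difference at least 1. The p-values came from limma with Benjamini-Hochberg adjustment over all 19938 genes, and differences carry 95% confidence intervals. Array medians lay between 4.647 and 4.859, and arrays of a group correlated with each other at 0.9875 or more over all rows. All 8 pluripotency markers were higher in the dedifferentiated and ES arrays than in fibroblasts, and all 9 fibroblast markers were lower. The fibroblast markers summed to 953 to 1020 on the linear scale in dedifferentiated arrays, 550 to 603 in ES arrays and 25000 to 27600 in fibroblast arrays. Of these 9 markers, Pdgfra and Dcn rose in dedifferentiated over ES cells. These are bulk samples, in which fewer cells of a type and less RNA per cell cannot be told apart.

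Relative to fibroblasts, 8 of 42 members rose in dedifferentiated cells, where 8.79% of all genes did, and 8 fell, where 10.1% of all genes did. At any size of difference, 14 members were higher against 25% of all genes, and 16 were lower against 22.4%. Between ES cells and fibroblasts, 5 members rose (8.85% of all genes) and 11 fell (10.4% of all genes). At any size, 13 members were higher in ES cells, where 26.1% of genes were, and 22 were lower, where 22.9% were. Both comparisons share the fibroblast arrays.

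Most members are expressed genes, and expressed genes changed more often. Among the 9606 genes that reached a mean of 6 in some group, which include 38 members, 16.8% rose and 18.5% fell in dedifferentiated cells relative to fibroblasts, against 21.1% and 21.1% of those members. In ES cells relative to fibroblasts the shares were 16.8% and 19.1% of these genes, against 13.2% and 28.9% of the members. The number of members that changed by the full size relative to fibroblasts was thus near that of other expressed genes in dedifferentiated cells. Of the 38 members, 34.2% were higher and 39.5% lower at any size in dedifferentiated cells than in fibroblasts. The 9606 genes gave 41.7% and 36.3% there. For ES cells relative to fibroblasts these any-size shares were 34.2% and 55.3% of the members, against 42% and 37.2% of the genes. The share of members that were higher at any size was thus below that of other expressed genes in both.

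Dedifferentiated and ES cells differed less. Srxn1, Gclm and Hmox1 rose in dedifferentiated cells relative to ES cells, 3 of 42 members where 1.01% of all genes rose, and Txnip alone fell, where 0.547% of all genes fell. At any size, 15 members were higher in dedifferentiated cells, where 11.2% of all genes were, and 3 were lower, where 10% were. Among the 38 members of that level, 34.2% were higher and 7.89% lower, against 20.7% and 16.9% of the 9606 genes. The median difference over members was 0.12, beside 0 over all genes.

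**Figure D2:**
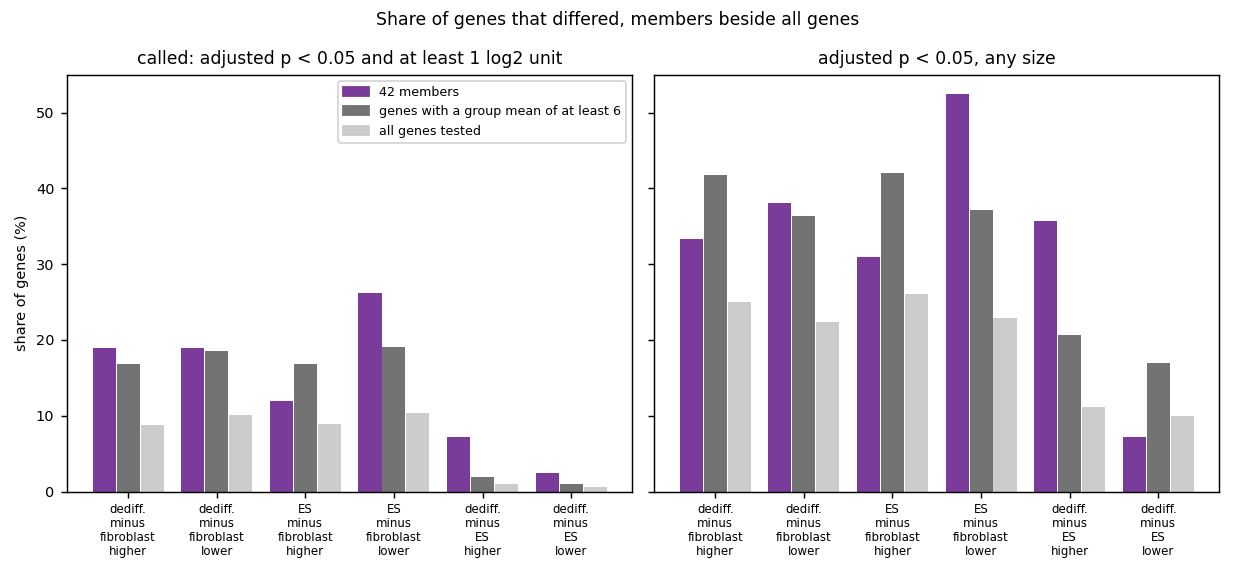
Share of genes, in percent, that were higher or lower in each comparison, for the 42 members, for the genes reaching a mean of 6 in some group and for all genes tested. The left panel counts genes past both criteria and the right panel those with an adjusted p under 0.05 at any size. In dedifferentiated minus ES, 35.7% of members were higher at any size, against 11.2% of all genes.

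Among the superoxide dismutases and catalase, Sod3 fell and Cat rose in both groups relative to fibroblasts. Sod3, the extracellular superoxide dismutase, was at 3.82, 3.26 and 3.63 in dedifferentiated arrays, 3.75, 3.77 and 3.37 in ES arrays, and 7.14, 6.82 and 7.26 in fibroblast arrays. The dedifferentiated and ES values overlapped, and both groups lay far below every fibroblast array. Its fall was 11.4-fold in dedifferentiated cells (difference -3.51, interval -3.86 to -3.15, adjusted p = 6.4e-09) and 10.9-fold in ES cells (difference -3.44, adjusted p = 7e-09).

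Cat, the peroxisomal catalase, moved the other way, with 8.67, 8.75 and 8.68 in dedifferentiated arrays, 8.58, 8.58 and 8.69 in ES arrays, and 7.6 in each fibroblast array. It was 2.14-fold higher in dedifferentiated cells and 2.02-fold higher in ES cells than in fibroblasts (differences 1.1 and 1.02). Identical values on several arrays occur in this table, so the very small spread of Cat in fibroblasts is not a measure of precision. Centring each array on its median brought both differences just under 1, to 0.978 and 0.897, and without the third ES array the ES difference was 0.98. Sod1, the cytosolic dismutase, was higher in dedifferentiated cells by 0.89 and in ES cells by 0.66, short of the size required. Sod2, the mitochondrial dismutase, had group means of 9.13 in dedifferentiated cells, 9 in ES cells and 9.05 in fibroblasts, and passed no test.

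Of 5 glutathione peroxidases, Gpx3, Gpx7 and Gpx8 fell in both groups relative to fibroblasts, and the other members did not change by the full size. Gpx8, an endoplasmic reticulum membrane peroxidase, was at 7.26, 7.33 and 7.47 in dedifferentiated arrays, 6.75, 6.93 and 6.92 in ES arrays, and 10.85, 10.55 and 10.73 in fibroblast arrays. Gpx7, its soluble relative in the same compartment, was at 5.65, 5.75 and 5.67 in dedifferentiated arrays, 6.49, 5.92 and 6.25 in ES arrays, and 8.37, 8.41 and 8.15 in fibroblast arrays. Both lay below every fibroblast array in both other groups. Gpx8 fell 10.3-fold in dedifferentiated and 14.4-fold in ES cells, and Gpx7 fell 6.15-fold and 4.27-fold, with adjusted p of 7.4e-08 or less.

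Gpx3, the secreted plasma peroxidase, read 7.94, 8.23 and 8.23 in dedifferentiated arrays, 7.29, 7.69 and 7.72 in ES arrays, and 9.65, 9.32 and 9.45 in fibroblast arrays. It fell 2.53-fold in dedifferentiated and 3.74-fold in ES cells. The dedifferentiated and ES cells were themselves apart for all of these genes. Relative to ES cells, Gpx3 and Gpx8 were higher in dedifferentiated cells by 0.56 and 0.48 (adjusted p = 0.011 and 0.0047), and Gpx7 was lower by 0.53 (difference -0.53, adjusted p = 0.014). Gpx4, which reduces lipid peroxides in membranes, was higher than in fibroblasts by 0.61 in dedifferentiated and 0.63 in ES cells. Gpx1, the main cytosolic form, had group means between 9.70 and 9.96 and passed the adjusted p in no comparison. Its difference of dedifferentiated over ES cells was 0.26 (interval 0.05 to 0.47, adjusted p = 0.079 in limma).

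Of the peroxiredoxins and sulfiredoxin, none changed by the full size in dedifferentiated cells relative to fibroblasts, although 3 of 5 passed the adjusted p in limma and 3 an unadjusted p under 0.05. Prdx4, the peroxiredoxin of the endoplasmic reticulum, was at 8.65, 8.47 and 8.64 in dedifferentiated arrays, 8.19, 8.42 and 8.35 in ES arrays, and 9.39, 9.33 and 9.49 in fibroblast arrays. Relative to fibroblasts it fell in ES cells (difference -1.08, adjusted p = 7.6e-07), and its difference in dedifferentiated cells was -0.81. Prdx4 is X-linked, and the groups differed in sex-linked transcripts: the X-inactivation RNA Xist averaged 3.25 in dedifferentiated, 3.15 in ES and 7.31 in fibroblast arrays, and the Y-linked Eif2s3y averaged 8.09 in dedifferentiated, 7.76 in ES and 3.55 in fibroblast arrays. Their part in the Prdx4 result was not tested.

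Prdx3, the mitochondrial peroxiredoxin, differed from fibroblasts by -0.75 in dedifferentiated and -0.85 in ES cells, and Prdx1 by 0.52 and 0.60. Prdx1, Prdx2 and Gpx4 each had another table row that shared accessions with the row used, so near-identical copies cannot be told apart. The paired rows gave similar differences, for instance 0.50 and 0.63 for the other row of Prdx1.

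Srxn1, sulfiredoxin, restores peroxiredoxins that peroxide has inactivated, and its gene is a known Nrf2 target. It was at 8.34, 8.31 and 8.34 in dedifferentiated arrays, 7.15, 7.16 and 7.25 in ES arrays, and 8.29, 8.16 and 8.27 in fibroblast arrays. Dedifferentiated arrays lay slightly above the fibroblast arrays without passing the test (difference 0.09, interval -0.06 to 0.25), and ES arrays stood below both groups. The difference of dedifferentiated over ES cells was 1.14 (2.21-fold, interval 0.99 to 1.30, adjusted p = 3.1e-06), and that of ES cells over fibroblasts was -1.05.

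Txn1, Txn2, Txnrd1, Txnrd2 and Txnrd3, which encode the thioredoxins and their reductases, differed from fibroblasts by -0.17 to 0.09 in dedifferentiated cells, and none passed the adjusted p or an unadjusted p under 0.05 there in limma. In ES cells Txnrd1, the cytosolic reductase and a known Nrf2 target, was lower by 0.44 than in fibroblasts (difference -0.44), and it was higher by 0.46 in dedifferentiated than in ES cells (adjusted p = 0.0027). The rows of Txnrd2 and Txnrd3 stayed below a mean of 6 in every group.

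Txnip binds and inhibits thioredoxin and restrains glucose uptake. It was at 9.27, 9.08 and 9.24 in dedifferentiated arrays, 10.33, 10.77 and 10.82 in ES arrays, and 9.75, 9.72 and 9.81 in fibroblast arrays. The 3 groups did not overlap, with dedifferentiated cells lowest and ES cells highest. Dedifferentiated cells were 2.72-fold below ES cells (difference -1.44, interval -1.71 to -1.18, adjusted p = 2e-05) and differed from fibroblasts by -0.56 (adjusted p = 0.002), while ES cells differed from fibroblasts by 0.88, which became 1.038 without the first ES array.

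Of the 4 genes of glutathione synthesis and recycling, Gclc and Gsr rose and Gss fell in dedifferentiated cells relative to fibroblasts, and Gclm rose relative to ES cells. Gclc, the catalytic subunit of the rate-limiting enzyme of glutathione synthesis, was at 9.12, 9.03 and 8.99 in dedifferentiated arrays, 8.09, 8.08 and 8.19 in ES arrays, and 8.02, 7.97 and 8.04 in fibroblast arrays. Gclm, the modifier subunit of the same enzyme, was at 9.80, 9.57 and 9.65 in dedifferentiated arrays, 8.38, 8.63 and 8.50 in ES arrays, and 8.98, 8.61 and 8.8 in fibroblast arrays. For both subunits every dedifferentiated array lay above all 6 others.

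Gclc rose 2.05-fold relative to fibroblasts (difference 1.04, interval 0.87 to 1.20, adjusted p = 2.2e-07) and was higher by 0.93 than in ES cells (adjusted p = 1.4e-05), just short of the size required. The first of these is a borderline call: it was 0.992 after quantile normalization, 0.915 after median centring and 0.997 without the first dedifferentiated array. Gclm rose 2.25-fold relative to ES cells (difference 1.17, interval 0.93 to 1.41, adjusted p = 4e-05) and was higher by 0.88 than in fibroblasts.

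Gsr, glutathione reductase, returns oxidised glutathione to its reduced form. It read 9.88, 9.79 and 9.84 in dedifferentiated arrays, 9.16, 9.30 and 9.30 in ES arrays, and 8.43, 8.16 and 8.45 in fibroblast arrays, and the groups stood in that order without overlap. Its rise in dedifferentiated cells was 2.81-fold relative to fibroblasts (difference 1.49, adjusted p = 6.8e-08), and the difference to ES cells was 0.58 (adjusted p = 0.00098). Gss, the synthetase that completes glutathione, ran the opposite way, at 6.58, 6.61 and 6.66 in dedifferentiated arrays, 6.71, 6.88 and 6.89 in ES arrays, and 7.84, 7.68 and 7.68 in fibroblast arrays. It fell in dedifferentiated cells relative to fibroblasts (difference -1.12, adjusted p = 2.9e-07) and was lower in ES cells by a difference of -0.91, or -1.024 after median centring.

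**Figure D3:**
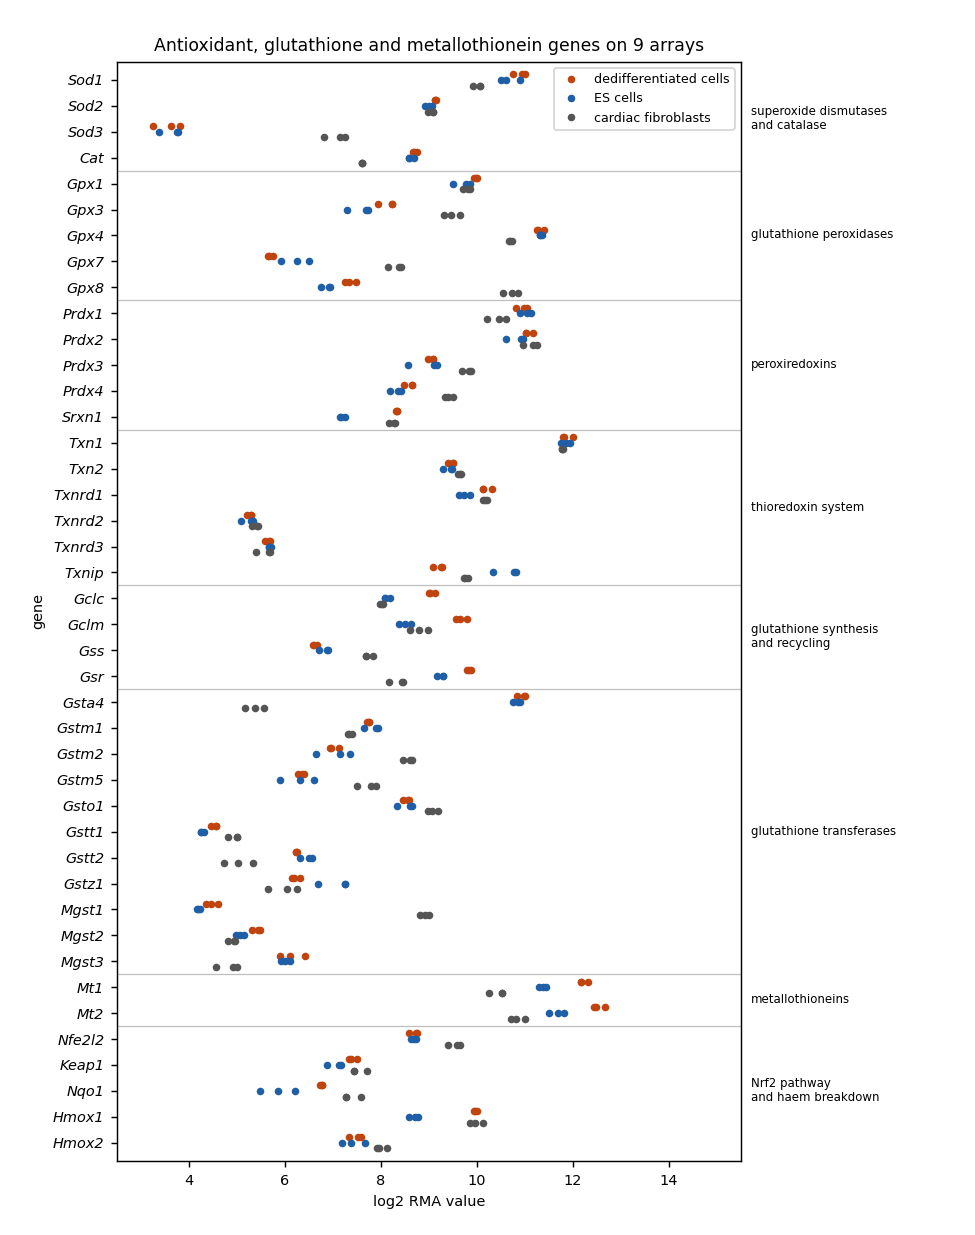
Log2 signal (x axis) of every array for the 42 members, grouped by role, with dedifferentiated, ES and fibroblast arrays marked by colour. Gsta4 is near 11 in all dedifferentiated and ES arrays and near 5 in fibroblast arrays, and Mgst1 and Sod3 lie the other way.

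The glutathione transferases, which attach glutathione to reactive compounds, held the widest differences of all members, in both directions. Gsta4, which detoxifies the lipid peroxidation product 4-hydroxynonenal, was at 11.01, 10.84 and 10.97 in dedifferentiated arrays, 10.76, 10.89 and 10.86 in ES arrays, and 5.57, 5.38 and 5.16 in fibroblast arrays. The dedifferentiated and ES arrays overlapped, 5 units or more above the fibroblasts. The rise was 47.4-fold in dedifferentiated cells (difference 5.57, interval 5.34 to 5.80, adjusted p = 5.4e-12) and 44.2-fold in ES cells (difference 5.47, adjusted p = 4.9e-12). Dedifferentiated and ES cells differed by 0.10 (interval -0.13 to 0.33).

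Mgst1, a microsomal transferase of the endoplasmic reticulum and outer mitochondrial membrane, was the mirror image, at 4.61, 4.45 and 4.36 in dedifferentiated arrays, 4.23, 4.18 and 4.16 in ES arrays, and 9, 8.82 and 8.91 in fibroblast arrays. It fell 21.7-fold in dedifferentiated cells (difference -4.44, adjusted p = 5.8e-12) and 26.4-fold in ES cells (difference -4.72, adjusted p = 3.3e-12). It was higher in dedifferentiated than in ES cells by 0.28 (adjusted p = 0.037). Gstm2 and Gstm5, transferases of the mu class, also fell: Gstm2 read 6.95, 7.13 and 6.93 in dedifferentiated arrays, 6.64, 7.35 and 7.15 in ES arrays, and 8.60, 8.46 and 8.64 in fibroblast arrays. Gstm5 read 6.39, 6.35 and 6.27 in dedifferentiated arrays, 5.90, 6.61 and 6.32 in ES arrays, and 7.89, 7.49 and 7.79 in fibroblast arrays. The falls were -1.56 and -1.39 in dedifferentiated cells, and -1.52 and -1.45 in ES cells. Gstm2, Gstm5 and Gstm1 are close paralogs whose signals the probes may not separate.

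Gstt2, of the theta class, was at 6.25, 6.23 and 6.22 in dedifferentiated arrays, 6.31, 6.57 and 6.5 in ES arrays, and 4.73, 5.33 and 5.03 in fibroblast arrays. Mgst3, a microsomal transferase with peroxidase activity, read 5.90, 6.42 and 6.10 in dedifferentiated arrays, 5.92, 6.11 and 5.99 in ES arrays, and 5.01, 4.92 and 4.57 in fibroblast arrays. Both rose in both groups relative to fibroblasts, Gstt2 by 1.20 in dedifferentiated and 1.43 in ES cells and Mgst3 by 1.31 and 1.17.

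Gstz1, which takes part in tyrosine breakdown, rose in ES cells alone. It was at 6.15, 6.32 and 6.18 in dedifferentiated arrays, 6.69, 7.26 and 7.26 in ES arrays, and 6.24, 5.64 and 6.04 in fibroblast arrays. The difference of ES cells over fibroblasts was 1.1 (adjusted p = 0.00018), that of dedifferentiated cells over fibroblasts was 0.24 (interval -0.13 to 0.62), and that of dedifferentiated over ES cells was -0.86 (adjusted p = 0.0044). Without the second fibroblast array the ES difference was 0.938, and after median centring it was 0.983, both under the size required. Without the first ES array the difference to dedifferentiated cells reached -1.048.

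**Figure D4:**
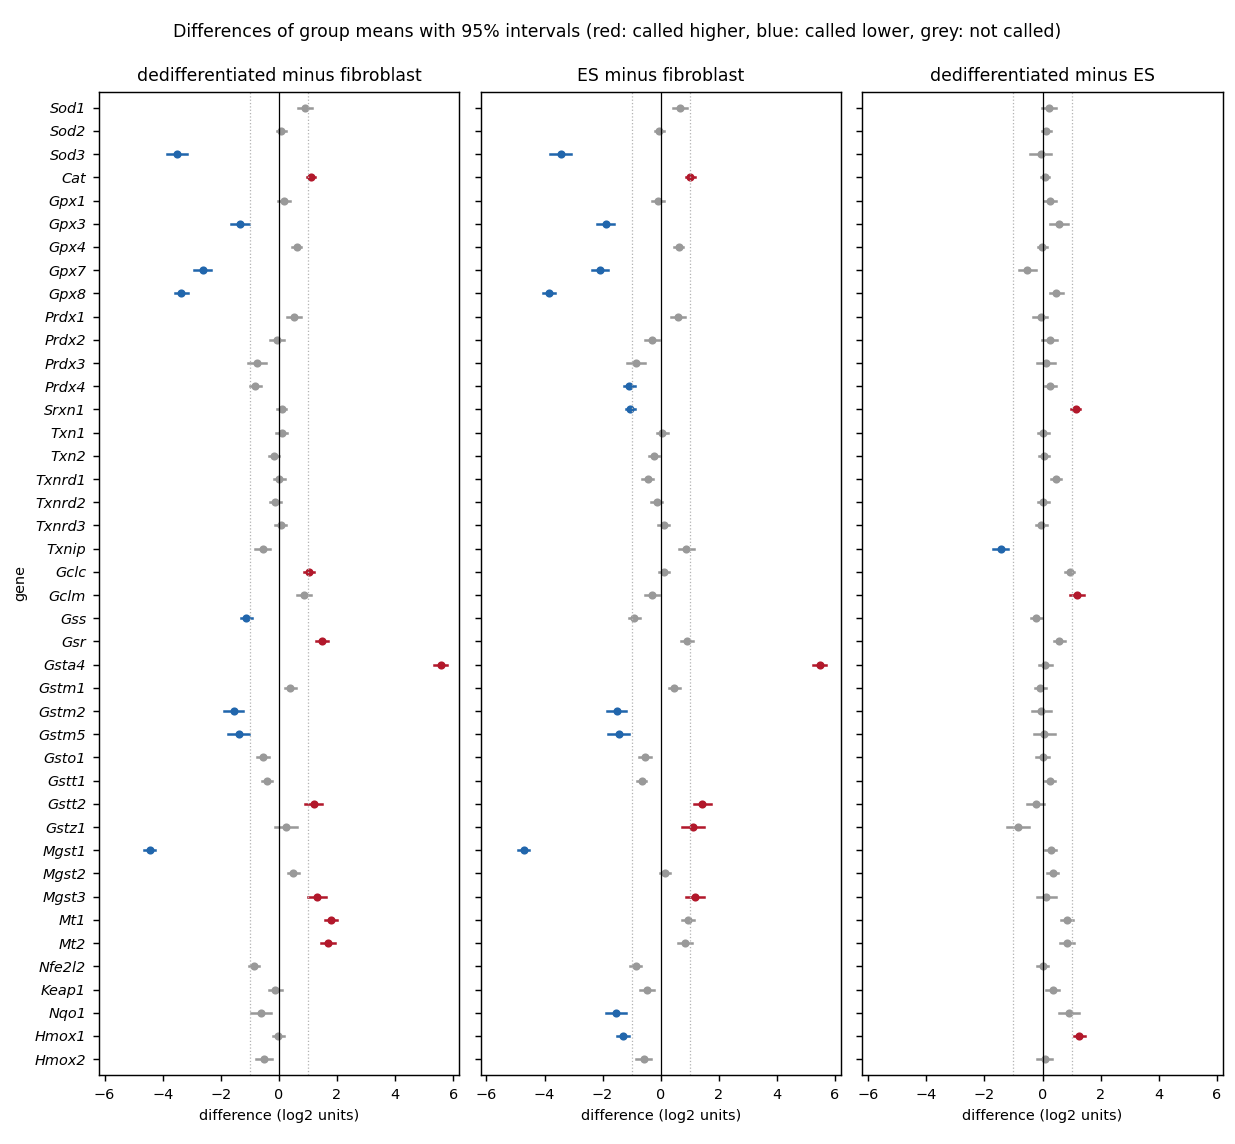
Difference in log2 signal of every member in the 3 comparisons, dedifferentiated minus fibroblast, ES minus fibroblast and dedifferentiated minus ES, with 95% confidence intervals from the fit. Gsta4 is highest in both comparisons with fibroblasts and Mgst1 lowest, while the dedifferentiated minus ES differences run from -1.44 for Txnip to 1.27 for Hmox1.

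Both metallothioneins rose in dedifferentiated cells relative to fibroblasts, and ES cells lay between. Mt1, whose promoter carries the 3 metal response element matches printed above, was at 12.16, 12.16 and 12.32 in dedifferentiated arrays, 11.29, 11.43 and 11.37 in ES arrays, and 10.52, 10.24 and 10.52 in fibroblast arrays. Mt2 was at 12.44, 12.47 and 12.66 in dedifferentiated arrays, 11.51, 11.68 and 11.81 in ES arrays, and 10.81, 10.70 and 11.00 in fibroblast arrays. No group overlapped another for either gene.

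Relative to fibroblasts, Mt1 rose 3.45-fold and Mt2 3.22-fold in dedifferentiated cells (differences 1.79 and 1.69, adjusted p = 2e-08 and 9.3e-08). Relative to ES cells the 2 genes were higher by 0.85 each, which is 1.80-fold (intervals 0.64 to 1.06 and 0.61 to 1.09, adjusted p = 0.00012 and 0.00026). ES cells were above fibroblasts by 0.94 and 0.84, again under the size required.

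Of 14 other genes of zinc, copper and iron handling, 2 rose in dedifferentiated over ES cells and 1 fell, where 1.01% and 0.547% of all genes did. No other gene of the 82 measured on the 6 companion lists described below changed by the full size in that comparison. Slc30a1, the zinc exporter that Mtf1 also controls, was at 7.83, 7.83 and 7.68 in dedifferentiated arrays, 7.01, 6.66 and 6.44 in ES arrays, and 6.94, 6.88 and 6.92 in fibroblast arrays. It rose relative to ES cells (difference 1.08, adjusted p = 0.00013) and was higher by 0.87 than in fibroblasts. Slc39a14, a zinc and iron importer, was at 8.58, 8.70 and 8.71 in dedifferentiated arrays, 7.19, 7.14 and 7.33 in ES arrays, and 8.36, 8.40 and 8.56 in fibroblast arrays. Its difference of dedifferentiated over ES cells was 1.45 (adjusted p = 2.6e-06). Slc31a1, the copper importer, ran the other way, at 7.62, 7.46 and 7.56 in dedifferentiated arrays, 8.71, 9.35 and 9.27 in ES arrays, and 8.20, 8.08 and 8.20 in fibroblast arrays (difference of dedifferentiated over ES cells -1.56, adjusted p = 3.4e-05). Mtf1, the factor itself, differed by 0.03 between dedifferentiated and ES cells (interval -0.14 to 0.21); it is outside the naming rule and was chosen after its values were seen.

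Nfe2l2, the transcript of Nrf2, was at 8.59, 8.72 and 8.75 in dedifferentiated arrays, 8.63, 8.69 and 8.72 in ES arrays, and 9.65, 9.40 and 9.58 in fibroblast arrays. Dedifferentiated and ES cells overlapped, with a difference of 0.01 (interval -0.18 to 0.19), and both differed from fibroblasts by -0.86. Transcript level does not report the activity of Nrf2, which is controlled mainly through protein stability. Keap1 was higher in dedifferentiated than in ES cells by 0.35 (adjusted p = 0.033).

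Hmox1, haem oxygenase, breaks down haem and is induced by Nrf2. It read 10, 9.93 and 9.95 in dedifferentiated arrays, 8.58, 8.71 and 8.77 in ES arrays, and 10.13, 9.86 and 9.96 in fibroblast arrays. Dedifferentiated arrays lay within the fibroblast range and all ES arrays lay below. It rose 2.41-fold in dedifferentiated over ES cells (difference 1.27, interval 1.08 to 1.46, adjusted p = 6.1e-06), fell in ES cells relative to fibroblasts (difference -1.29), and differed by -0.02 between dedifferentiated cells and fibroblasts (interval -0.21 to 0.17).

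Nqo1, a quinone reductase and another Nrf2 target, read 6.78, 6.78 and 6.73 in dedifferentiated arrays, 5.47, 5.85 and 6.21 in ES arrays, and 7.59, 7.27 and 7.27 in fibroblast arrays. The groups did not overlap, with ES cells lowest and fibroblasts highest. It fell in ES cells relative to fibroblasts (difference -1.53, adjusted p = 5.6e-06). Dedifferentiated cells were above ES cells by 0.92 (adjusted p = 0.0017), and by 1.102 without the third ES array. Hmox2, the constitutive haem oxygenase, differed from fibroblasts by -0.51 in dedifferentiated and -0.59 in ES cells.

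**Figure D5:**
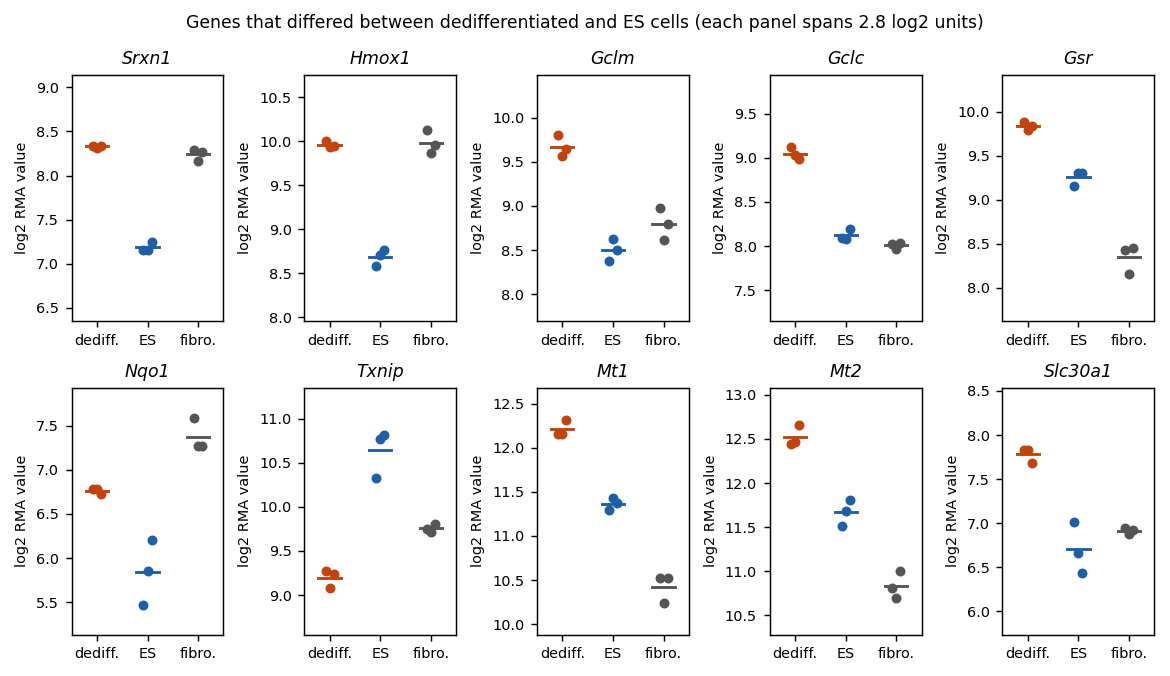
Log2 signal (y axis) of each array for 9 members and Slc30a1, with points for arrays and a bar for each group's mean, and the same axis span in every panel. In Srxn1 and Hmox1 only the ES arrays lie low, in Gclc, Gclm and Slc30a1 the dedifferentiated arrays lie above both other groups, and in Txnip they lie below both.

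Counted by array, all 3 dedifferentiated arrays lay above all 6 others for Sod2, Gpx1, Srxn1, Gclc, Gclm, Gsr, Mgst2, Mt1 and Mt2. These are 9 of 42 members, where 9.2% of all genes did so. Without the dim Mgst2 they are 8 of the 38 members that reached a mean of 6 in some group (21.1%), beside 15.9% of all genes of that level. They lay below all 6 others for Gpx7, Txnip and Gss, 3 of 42 members beside 6% of all genes, and 7.89% of the 38 members beside 9.68% of genes of that level. This count was chosen after the values were seen, and after median centring it gave 6 above and 3 below, beside 7.71% and 7.66% of all genes. Without the first ES array, 10 lay above and 6 below, beside 10.4% and 8.56% of all genes. Of the 9 genes, Sod2 and Gpx1 passed the adjusted p against neither group.

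Of 42 members, 19 changed by the full size in no comparison, where 77.2% of all genes did not. They were Sod1, Sod2, Gpx1, Gpx4, Prdx1, Prdx2, Prdx3, Txn1, Txn2, Txnrd1, Txnrd2, Txnrd3, Gstm1, Gsto1, Gstt1, Mgst2, Nfe2l2, Keap1 and Hmox2.

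Other genes of the same pathways were taken from 6 companion lists, 82 of whose 87 genes were measured. In dedifferentiated cells relative to fibroblasts 9 of them rose and 16 fell, which is 11% and 19.5%, beside 8.79% and 10.1% of all genes. In ES cells 8 rose and 18 fell, which is 9.76% and 22%, beside 8.85% and 10.4% of all genes. Among the 9606 genes that reached a mean of 6 in some group, 16.8% rose in each comparison, and 18.5% and 19.1% fell. The companion counts were not limited to genes of that level. Slc40a1, the iron exporter, and Gpx2, a peroxidase best known from the gut epithelium, rose most in both, by 3.18 and 2.94 in dedifferentiated and 3.2 and 2.93 in ES cells. Sesn2, a stress-induced sestrin, was the next in dedifferentiated cells at 1.56, and Idh2, a mitochondrial source of NADPH, was the next in ES cells at 2.26. Idh2 was at 9.29 in each dedifferentiated array, 10.19, 10.17 and 10.17 in ES arrays, and 7.89, 7.96 and 7.89 in fibroblast arrays.

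Cp, the ferroxidase ceruloplasmin, fell most, with differences of -5.05 in dedifferentiated and -5.08 in ES cells. Xdh, xanthine dehydrogenase, which can release superoxide, differed by -4.33 in each. Ephx1, an epoxide hydrolase, fell by 3.65 in dedifferentiated cells, and Msrb3, a methionine sulfoxide reductase, fell by 3.90 in ES cells. Of the 15 Nrf2 partners and other targets, 6 fell in each comparison with fibroblasts and none rose by the full size in limma. Of all genes, 10.1% fell in dedifferentiated and 10.4% in ES cells. The shares were 18.5% and 19.1% of the genes that reached a mean of 6 in some group. At any size, 5 of the 15 were higher in dedifferentiated cells and 8 lower, where 25% and 22.4% of all genes were. In ES cells 5 were higher and 7 lower, where 26.1% and 22.9% of all genes were. Of the 7 superoxide and peroxide sources, 3 fell in each comparison, beside the same 10.1% and 10.4% of all genes. None of the 7 sources was higher in either comparison at an adjusted or unadjusted p under 0.05 in limma.

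Cybb, the phagocyte NADPH oxidase subunit, was among the latter and was chosen after its values were seen: it was at 3.81, 3.62 and 3.80 in dedifferentiated arrays, 3.70, 4 and 3.77 in ES arrays, and 5.71, 5.42 and 6.06 in fibroblast arrays. Of 9 macrophage and leukocyte markers, 5 fell and 1 rose in dedifferentiated cells relative to fibroblasts, and their summed linear signal was 372 to 384 in dedifferentiated, 504 to 600 in ES and 808 to 988 in fibroblast arrays. Their part in the Cybb result was not tested.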

How the data were processed

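The authors deposited 1 table of log2 signals for 35557 array rows on 9 arrays, made with RMA in Affymetrix Expression Console 1.1 per the submitters' processing notes. The values were used as deposited, with no further normalization. The platform annotation gave 1 symbol to 21789 rows, several to 1621 and none listed here to 12147. Each of the 19938 genes was represented by its brightest row, judged by the average of all 9 arrays. Groups came from the sample titles. All arrays entered 1 fit in limma 3.58.1 (R 4.3.3, lmFit and eBayes), with Benjamini-Hochberg adjustment over all genes for each comparison. A gene was counted as changed with an adjusted p under 0.05 and a difference of at least 1. The procedure was tested on simulated data. RMA compresses differences of dim rows, and the number of arrays limits the precision. No probe detection calls were used, so a low log2 signal is not shown to be above background.

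The members and lists were chosen with earlier results of these data known. All members may be named; those that changed are given by array. From the companion lists, the 3 genes that rose most and the 3 that fell most in each comparison are named. Alternatives were median centring, quantile normalization, dim-gene filters, other row choices, array weights, the replicate number as a block, other thresholds and leaving out each array. Promoters came from RefSeq.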

Additional observations from a re-analysis of the deposited data

Results flagged for a closer look

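Of the members, 4 changed by the full size between dedifferentiated and ES cells, which tests whether their differences from the same fibroblast arrays are unequal. Srxn1 was higher by 1.14, Gclm by 1.17 and Hmox1 by 1.27 in dedifferentiated over ES cells, and the difference of Txnip was -1.44. The first 3 are known Nrf2 targets, and the levels of Nfe2l2 itself differed by 0.01. Txnrd1 and Nqo1, also called targets above, differed by 0.46 and 0.92. The members were not sorted into Nrf2 targets and others, so whether the targets moved as a set was not tested. The label was not given to every member that may carry it. For instance, Prdx1, Gstm1, Txn1 and Gsta4 differed by -0.07, -0.08, 0.03 and 0.10, and none of these passed the adjusted p in limma. Of the 15 Nrf2 partners and other targets on the companion list, none changed by the full size between dedifferentiated and ES cells. At any size, 5 of the 15 were higher in dedifferentiated cells and 3 lower, where 11.2% and 10% of all genes were.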

How the results depend on the processing

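No member that passed the adjusted p reversed under any alternative, and 44 sign changes occurred where neither setting passed it. After median centring, which moved the median of all genes by -0.12 in dedifferentiated and -0.119 in ES cells relative to fibroblasts, 3 members rose in ES cells and rises were 20% of the changed members, against 31.2% as deposited. Over all genes 7.51% rose in ES cells after centring, and rises were 39.1% of the changed genes, against 46% as deposited. Array weights gave 2 members lower in dedifferentiated than in ES cells, and 5 at any size. Leaving out 1 array gave 1 to 2, the 2 without the first ES array, which added Gstz1. With every row of the table, 3056 rows rose in dedifferentiated and 2900 in ES cells relative to fibroblasts, and 443 rose and 190 fell between dedifferentiated and ES cells, since more rows were tested.

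With no minimum size, 14 members were higher and 16 lower in dedifferentiated cells than in fibroblasts, 13 and 22 in ES cells than in fibroblasts, and 15 and 3 in dedifferentiated than in ES cells. Over all genes these were 4977 and 4468, 5203 and 4570, and 2236 and 2003. With a minimum of 1.5-fold, 11 members were higher and 12 lower in dedifferentiated cells relative to fibroblasts, 12 higher and 16 lower in ES cells relative to fibroblasts, and 7 were higher and 2 lower in dedifferentiated than in ES cells. Over all genes the 1.5-fold counts were 3226 and 3075, 3283 and 3162, and 765 and 660. Gclc, Cat, Gstz1, Gss, Nqo1 and Txnip, each with a difference of 0.86 to 1.1 in size in the comparison concerned, crossed the size limit of 1 in at least 1 setting.

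With the replicate number as a block, 8 members rose and 8 fell in dedifferentiated cells relative to fibroblasts, the same genes, and no other member call changed. Same-numbered arrays of different groups correlated at -0.204 to 0.25 in their deviations, and 3 of 9 arrays matched best with their own number. This gave no sign that the numbers pair the samples, but with 3 arrays per group it cannot show that they do not.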
